A study of Mus musculus with 8 samples.

Results

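Nephron segment patterning transcription factors are described here as 10 genes, Lhx1, Pou3f3, Irx1, Irx2, Irx3, Osr2, Sim1, Tfap2b, Emx2 and Emx1. They were picked by name, from their known roles in the forming nephron, but with earlier results of these data known. Their shares and medians set beside those of all genes are therefore descriptive only. Rows were found by Ensembl gene ID and GENCODE M21 symbol. All 10 were found among the 49315 genes counted, and all 10 passed the filter on low counts. The lowest count of a member in any library was 20, for Irx1. The samples were kidneys of mice, 4 labelled control, which the extraction notes call wild type, and 4 labelled conditional knockout of Kdm1a, the gene of the histone demethylase LSD1, and polyadenylated RNA was sequenced from frozen tissue. The labels do not give the alleles of the controls, the recombinase and the cells that express it, or the strain, age and sex of the animals. Nothing says whether the 4 libraries of a group came from separate animals, so the p-values below measure the spread between these 8 samples, which may be technical.

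A nephron forms from a cluster of progenitor cells that becomes a hollow vesicle, then a comma-shaped and an S-shaped body. Transcription factors that differ along this body mark out the future glomerulus, proximal tubule, loop of Henle and distal tubule. Lhx1 acts early and is needed for the vesicle to progress. The Iroquois genes Irx1, Irx2 and Irx3 are expressed in the middle of the S-shaped body, and Pou3f3 (also called Brn1) is needed for the loop of Henle and distal tubule. Tfap2b is needed in the distal tubule, and Emx2 is needed in the ureteric bud for the kidney to form.

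Levels are given in counts per 1000000 counts of the library, scaled by trimmed mean of M values (CPM). Differences are log2 fold changes, knockout minus control, with standard errors (SE). Adjusted p-values come from edgeR's quasi-likelihood test with Benjamini-Hochberg adjustment over all 18485 genes tested, and a gene under 0.05 is termed called. Total counts ran from 19524945 to 28544511 per library, so 1 count was worth 0.0350 to 0.0512 CPM. Kdm1a itself was at 110 to 120 CPM in the controls and 90.9 to 95.3 CPM in the knockouts (log2 fold change −0.27, SE 0.05, edgeR adjusted p 0.0194), a mean at 83.0% of that of the controls. Leaving out control replicate 1 or 3, or knockout replicate 1, 2 or 4, ended that call (adjusted p up to 0.0765). The labels do not say which exons are deleted, and a count here sums reads from every exon, which checks the labels only in part. Markers of kidney were present in every library, with 12 podocyte markers at 604 to 1027 CPM in sum. Several libraries stood apart from their group. On the first principal component control replicate 2 (9.56) lay beside knockout replicate 3 (9.71), while the other controls lay from −78.7 to −52.4 and the other knockouts from 48.3 to 68.4. The 10 adrenal cortex markers summed to 3242 CPM in replicate 1 and 354 CPM in replicate 4 of the knockouts and to 173 CPM in control replicate 4, against 16.7 to 33.2 CPM elsewhere. The 12 ovary and oocyte markers summed to 19.9 CPM in control replicate 2 and to 1.52 to 3.36 CPM elsewhere. Only 8 and 2 genes of these lists passed the filter. The part of these libraries in the results was not tested, and calls of members without them are given beside the results.

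Of the 10 members, 4 fell in the knockout, Lhx1, Osr2, Irx3 and Emx1, and 0 rose. Over all genes tested, 8.27% were called lower and 6.61% higher. At an unadjusted p under 0.05 in edgeR, 6 members were lower (18.6% of all genes) and 0 higher (16.5%). DESeq2 called 6 members lower and 0 higher, and over its 32504 genes with a count 2517 lower and 1977 higher. Irx1 and Irx2 had the largest log2 fold changes, −2.33 and −1.84, and narrowly missed the threshold, while Pou3f3, Sim1, Tfap2b and Emx2 lay between −0.27 and 0.13 on the log2 scale. The median log2 fold change of the 10 was −0.90, against 0.0044 over all genes tested. In 3 members, Lhx1, Osr2 and Irx3, all 4 knockout libraries lay below all 4 controls, which 9.58% of the tested genes did. No member had all knockout libraries above all controls, which 9.29% of the tested genes did. The count of calls depended on single libraries, as did that of all genes called lower. The count of members was 6 without control replicate 2 or without knockout replicate 3, where Irx1 and Irx2 were called too. Over all genes, 3598 of 18953 and 1742 of 18725 were lower in these fits. Without knockout replicate 1 or 2 it was 2 members (211 of 18870 and 278 of 18929 genes), and without control replicate 4 it was 1 (348 of 19020). No member was called without control replicate 1 (239 of 18728 genes), control replicate 3 (174 of 18746) or knockout replicate 4 (43 of 18672). The count of members was also 0 without the 3 libraries with adrenal transcripts, where 1 gene was called in all. Each of these 6 members was lower in the knockout in every fit that left out a library.

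**Figure D1:**
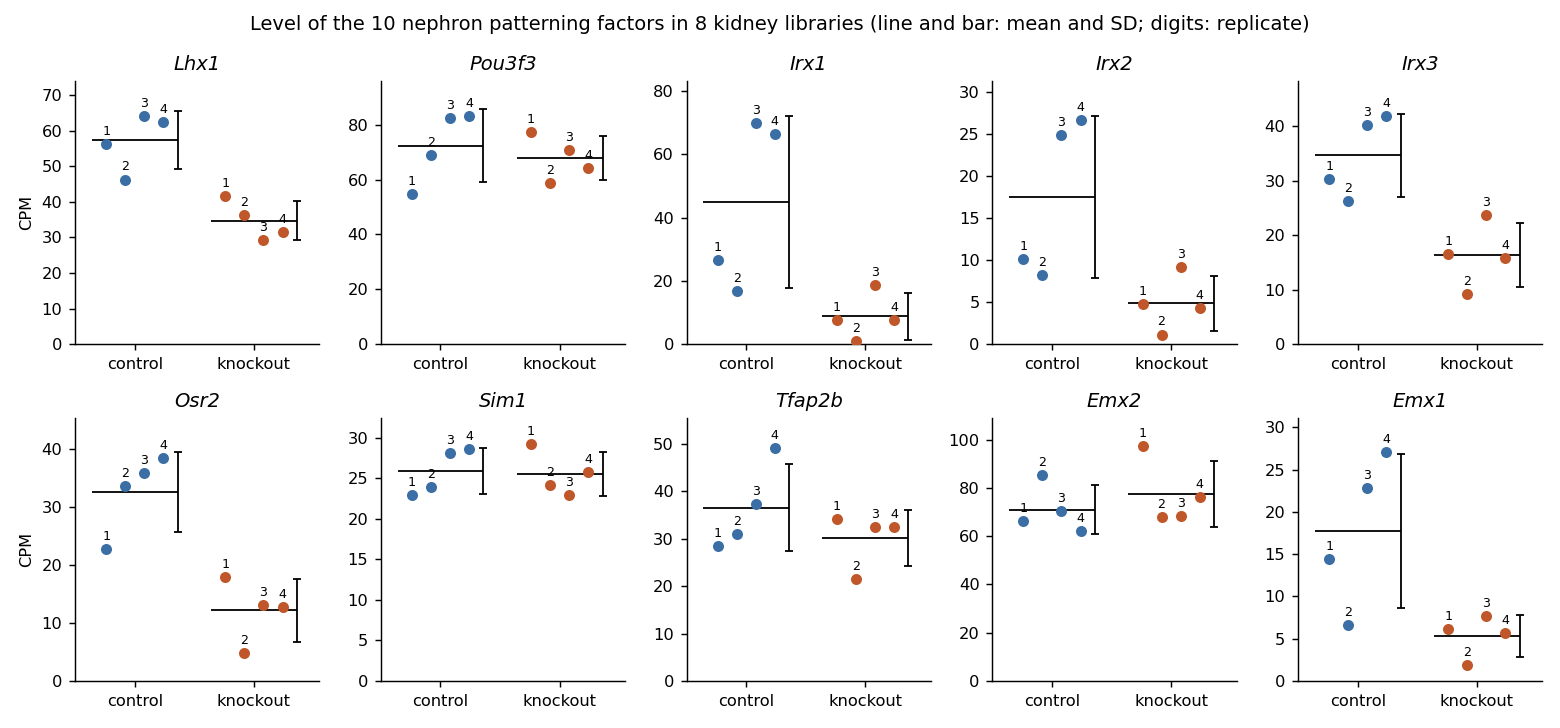
Level of each member in CPM (vertical axes, from 0) in the 4 control and 4 knockout kidneys, with 1 point per library labelled by replicate, the mean as a line and the SD as a bar. Lhx1, Osr2 and Irx3 separate the groups, whereas knockout replicate 3 reaches above control replicate 2 in Irx1, Irx2 and Emx1, and Sim1 stays between 22.9 and 29.2 CPM throughout.

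Compared per length, as reads per kilobase of exon and 1000000 counts (RPKM), the controls expressed Emx2 most, at 23.7 ± 3.41 RPKM (mean ± SD, n = 4). Osr2 followed at 19.0 ± 4.0, Irx1 at 18.9 ± 11.4, Lhx1 at 14.1 ± 1.99, Irx3 at 12.5 ± 2.75 and Pou3f3 at 9.76 ± 1.80 RPKM. Emx1 was at 8.12 ± 4.16, Tfap2b at 5.77 ± 1.45, Irx2 at 5.34 ± 2.95 and Sim1 at 3.52 ± 0.391 RPKM. The ranges of every pair of neighbours in this order overlapped, so the order of neighbours is not resolved. In the knockouts Emx2 was again first (25.8 ± 4.6 RPKM), Pou3f3 was second (9.16 ± 1.08) and Lhx1 was next (8.52 ± 1.34). Irx1 was at 3.71 ± 3.11 RPKM, below Osr2 at 7.07 ± 3.15, Irx3 at 5.91 ± 2.14 and Tfap2b at 4.76 ± 0.930 RPKM.

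Sequence before the annotated start was found for 8 of the 10 members in RefSeq's GRCm38.p6 table, and 240 bases that end 10 bases before that start were read. For Irx3, Tfap2b, Emx2 and Emx1 this start lies inside the gene as the coordinates deposited with the counts bound it. Their windows thus lie within the gene and not upstream of it. The window of Lhx1 lies within the antisense gene Lhx1os, and that of Pou3f3 within AC122898.1. The windows of the other 4 members are shown, those of Lhx1 and Irx2, whose levels were lower in the knockout on average, and those of Pou3f3 and Sim1, whose levels were even. They are written 5′ to 3′ on the strand of the gene, and capitals mark the CCAAT box (CCAAT) and the core of the site of RBPJ, the transcription factor of Notch signalling (TGGGAA), on either strand.
Lhx1, chr11:84525545-84525784, minus strand: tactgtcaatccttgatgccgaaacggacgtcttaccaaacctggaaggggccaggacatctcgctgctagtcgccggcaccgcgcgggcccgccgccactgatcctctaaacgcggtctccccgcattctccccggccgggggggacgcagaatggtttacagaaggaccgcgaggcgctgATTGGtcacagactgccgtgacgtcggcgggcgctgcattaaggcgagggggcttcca
Irx2, chr13:72628570-72628809, plus strand: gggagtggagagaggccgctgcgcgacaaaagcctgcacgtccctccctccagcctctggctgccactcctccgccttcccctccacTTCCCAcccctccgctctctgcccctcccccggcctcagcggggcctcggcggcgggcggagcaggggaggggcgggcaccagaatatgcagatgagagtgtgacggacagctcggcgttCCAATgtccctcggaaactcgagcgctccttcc
Pou3f3, chr1:42695518-42695757, plus strand: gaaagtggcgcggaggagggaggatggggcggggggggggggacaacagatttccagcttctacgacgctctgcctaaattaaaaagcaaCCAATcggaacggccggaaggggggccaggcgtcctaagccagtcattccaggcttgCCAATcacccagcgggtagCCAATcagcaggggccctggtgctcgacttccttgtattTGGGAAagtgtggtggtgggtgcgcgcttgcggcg
Sim1, chr10:50895401-50895640, plus strand: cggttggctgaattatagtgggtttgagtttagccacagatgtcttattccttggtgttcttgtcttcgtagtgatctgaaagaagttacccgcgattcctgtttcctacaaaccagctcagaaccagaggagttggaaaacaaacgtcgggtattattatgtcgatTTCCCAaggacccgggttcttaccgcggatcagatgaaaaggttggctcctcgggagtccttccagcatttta
TGGGAA was present in 5 of the 8 members, Pou3f3, Irx2, Irx3, Sim1 and Emx2, and in 20.8% of all 32851 windows of the same length. CCAAT was present in 4 of the 8, Lhx1, Pou3f3, Irx2 and Emx2, and in 33.0% of all windows. The TATA box, TATAAA, was found in 0 of the 8 against 12.1% of all windows. No pair of these motifs shares bases in the windows shown. The windows held from 5 CpG dinucleotides in Tfap2b to 28 in Emx1, with 26 in Lhx1, 19 in Irx2, 15 in Pou3f3 and 11 in Sim1, against a median of 5 over all windows. Among the 4 windows outside the members' own genes, TGGGAA was in 3 and CCAAT in 3. A match is a description of letters only.

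Lhx1 (ENSMUSG00000018698, chromosome 11, 84518284 to 84525535, minus strand, GRCm38) encodes a LIM homeodomain protein. Its control libraries 1 to 4 held 56.3, 46.3, 64.2 and 62.4 CPM, and the knockout libraries 41.6, 36.4, 29.4 and 31.4 CPM. The groups did not overlap, and the lowest knockout was replicate 3, which in the Iroquois genes and Emx1 was the highest. The log2 fold change was −0.73 (SE 0.13, edgeR adjusted p 0.0173), a mean lower by 39.5%. Leaving out control replicate 1, control replicate 3 or knockout replicate 4 ended the call, at adjusted p values of 0.0502, 0.0572 and 0.0655. It was kept with a covariate for Y-linked transcripts (0.0282) and with one for adrenal transcripts (0.0338). These covariates were the mean log2 CPM in a library of Y-linked genes or of the adrenal cortex markers. Y-linked levels by library are not given here, so the balance of sex between the groups is not shown.

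Osr2 (ENSMUSG00000022330, chromosome 15, 35296098 to 35303304, plus strand) encodes a zinc finger protein of the odd-skipped family. It stood at 22.8, 33.7, 35.9 and 38.5 CPM in control replicates 1 to 4 and at 18.0, 4.87, 13.1 and 12.8 CPM in knockout replicates 1 to 4. Control replicate 2, which lay beside knockout replicate 3 on the first principal component, lay inside the range of the other controls for this gene. The log2 fold change was −1.42 (SE 0.33, edgeR adjusted p 0.0285). Leaving out control replicate 1, 3 or 4 or knockout replicate 4 ended the call, with adjusted p values from 0.0549 to 0.0852. Its relative Osr1, a factor of the intermediate mesoderm and of nephron progenitors, was at 29.7 ± 6.66 CPM in controls and 37.8 ± 8.69 CPM in knockouts (n = 4 each) and was not called (log2 fold change 0.35, SE 0.20, edgeR adjusted p 0.234).

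The Iroquois genes lie in clusters, with Irx1 (ENSMUSG00000060969, 71957921 to 71963723, minus strand) and Irx2 (ENSMUSG00000001504, 72628820 to 72634198, plus strand) on chromosome 13. Irx3 (ENSMUSG00000031734, 91798525 to 91802067, minus strand) lies on chromosome 8. Irx1 was at 26.5, 16.8, 69.8 and 66.3 CPM in control replicates 1 to 4 and at 7.69, 1.0, 18.8 and 7.70 CPM in knockout replicates 1 to 4. Controls 3 and 4 were more than 2-fold above controls 1 and 2, knockout replicate 2 was nearly without the transcript, and knockout replicate 3 exceeded control replicate 2. The log2 fold change was −2.33 (SE 0.71, edgeR adjusted p 0.0561). Irx2 held 10.2, 8.25, 24.9 and 26.8 CPM in the controls and 4.77, 1.15, 9.17 and 4.35 CPM in the knockouts, with the same pair of controls high and the same knockout low. Its log2 fold change was −1.84 (SE 0.58, edgeR adjusted p 0.0605). Irx3 held 30.3, 26.2, 40.2 and 41.8 CPM in the controls and 16.6, 9.24, 23.7 and 15.8 CPM in the knockouts. The groups of Irx3 did not overlap, by a margin of knockout replicate 3 at 23.7 below control replicate 2 at 26.2 CPM, and the log2 fold change was −1.08 (SE 0.26, edgeR adjusted p 0.0309).

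The calls of the Iroquois genes turned on particular libraries. Of the 8 fits with 1 library left out, Irx3 was called in 2, those without control replicate 2 or knockout replicate 3 (adjusted p 0.00934 and 0.0176), and in the other 6 its adjusted p ran from 0.0563 to 0.0939. In those same 2 fits Irx1 had adjusted p values of 0.0167 and 0.0311, and Irx2 had 0.0203 and 0.0346. The covariate for Y-linked transcripts gave Irx3 an adjusted p of 0.0534 and that for adrenal transcripts 0.0638. Among the other Iroquois genes, Irx5 was at 5.43 ± 2.24 CPM in controls and 3.48 ± 1.34 CPM in knockouts (n = 4 each, log2 fold change −0.64, SE 0.37, edgeR adjusted p 0.244), and Irx4 and Irx6 were too low to be tested. Irx3os, an antisense transcript that shares 124 exonic bases with Irx3, had 8 to 38 counts per library, against 184 to 997 for Irx3. Whether the counting used strand is not given in the sources used here.

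**Figure D2:**
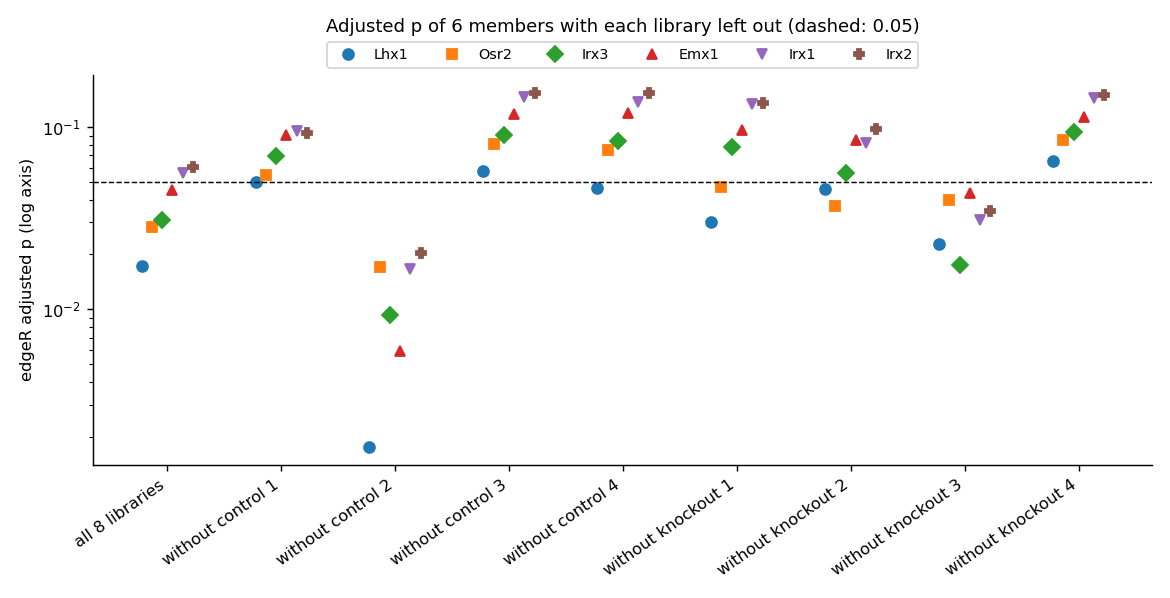
EdgeR adjusted p (vertical log axis) of the 6 members with the largest changes in the fit of all 8 libraries and in the fits that each leave out 1 library (horizontal axis), with the 0.05 threshold dashed. All 6 lie under the line without control replicate 2 or without knockout replicate 3, and none does when control replicate 1, control replicate 3 or knockout replicate 4 is left out.

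Emx1 and Emx2 are homeobox genes of the empty spiracles family. Emx1 (ENSMUSG00000033726, chromosome 6, 85187438 to 85204462, plus strand) was at 14.4, 6.63, 22.8 and 27.0 CPM in control replicates 1 to 4 and at 6.08, 1.91, 7.72 and 5.65 CPM in knockout replicates 1 to 4. Control replicate 2 lay within the knockout range, and the other 3 controls lay above every knockout. The log2 fold change was −1.72 (SE 0.48, edgeR adjusted p 0.0449), and with 1 library left out the call held in 2 fits of 8, without control replicate 2 (0.00593) or without knockout replicate 3 (0.0435). In the other 6 the adjusted p ran from 0.0853 to 0.119, and it was 0.104 with the Y-linked covariate and 0.0663 with the adrenal covariate.

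Emx2 (ENSMUSG00000043969, chromosome 19, 59458372 to 59465357, plus strand) was at 66.2, 85.5, 70.5 and 62.0 CPM in control replicates 1 to 4 and at 97.4, 67.9, 68.3 and 76.4 CPM in knockout replicates 1 to 4. The highest values were those of knockout replicate 1, with the most adrenal transcripts, and of control replicate 2, with the most ovary and oocyte transcripts. Emx2 is also known from the developing gonad and reproductive ducts. The log2 fold change was 0.13 (SE 0.14, edgeR adjusted p 0.539) and was −0.0062 with the adrenal covariate. The part of the adrenal and ovarian transcripts in this gene's level was not tested. Emx2os, an antisense transcript that shares 264 exonic bases with Emx2, had 303 to 470 counts per library, against 1353 to 2306 for Emx2.

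The ratio of 2 family members within a library was compared between genotypes for 4 pairs, by exact permutation of the labels (two-sided, 70 arrangements, smallest possible p 0.0286), with p-values adjusted over the 4 ratios. In controls the log2 ratio of Emx1 to Emx2 was −2.17 ± 1.08, and in knockouts −3.99 ± 0.821 (SD, n = 4 each, exact permutation p 0.0571, adjusted p 0.0762). Irx1 stood above Irx2 by 1.30 ± 0.199 in controls and by 0.58 ± 0.534 in knockouts, on the log2 scale of counts (n = 4 each, exact permutation p 0.0571, adjusted p 0.0762). The log2 ratio of Irx3 to Irx1 was −0.16 ± 0.688 in controls and 1.39 ± 1.19 in knockouts (n = 4 each, exact permutation p 0.0571, adjusted p 0.0762). That of Irx3 to Irx2 was 1.14 ± 0.549 and 1.97 ± 0.662 (n = 4 each, exact permutation p 0.143, adjusted p 0.143). No ratio passed the threshold, and the groups overlapped in each. After adjustment over the 4 ratios, even a fully separated ratio could not have passed by itself. The missing calls thus do not decide whether any ratio changed. Control replicate 2 and knockout replicate 3 crossed over in the Irx1 to Irx2 ratio at 1.02 and 1.03, and the ratio of Irx1 to Irx2 was reversed, at −0.19, only in knockout replicate 2, where the genes had 20 and 23 counts.

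**Figure D3:**
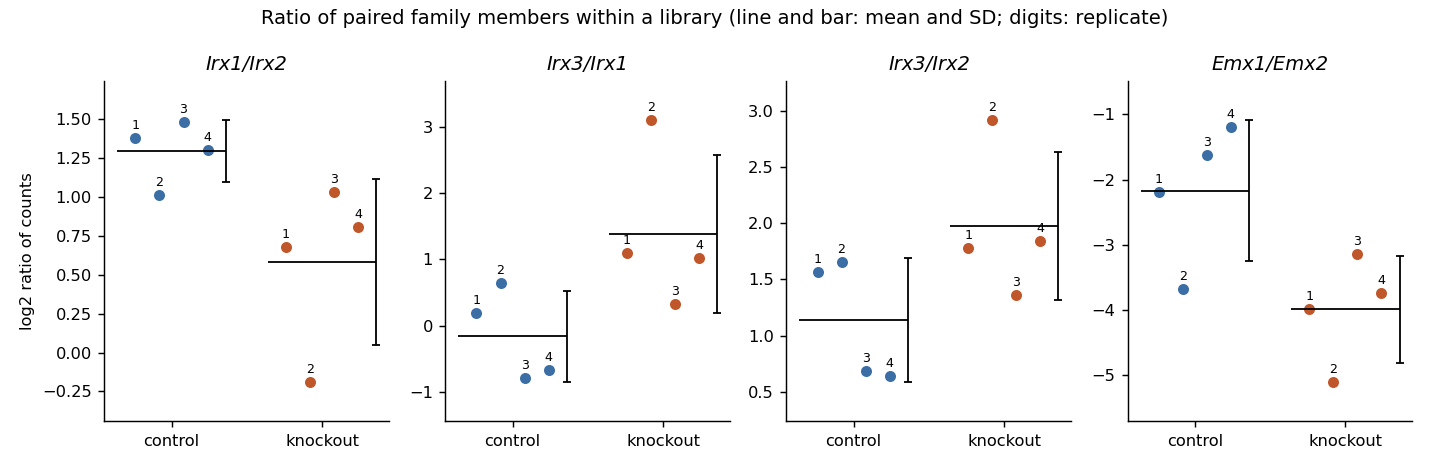
Log2 ratio of counts (vertical axes) for 4 pairs of family members within each control and knockout library, with replicate numbers beside the points and the mean and SD as line and bar. Knockout replicate 2 is at the far end in all 4 pairs, and the groups overlap in each.

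The remaining 3 members were not called, and their differences were within the spread of the libraries. Pou3f3 (ENSMUSG00000045515, chromosome 1, 42695768 to 42703176, plus strand), a POU-domain factor, was at 54.9, 68.8, 82.5 and 83.1 CPM in the controls and at 77.3, 58.8, 70.9 and 64.4 CPM in the knockouts. Its log2 fold change was −0.09 (SE 0.14, edgeR adjusted p 0.665), with the knockouts inside the range of the controls. Tfap2b (ENSMUSG00000025927, chromosome 1, 19208914 to 19238576, plus strand), of the AP-2 family, was at 28.5, 31.1, 37.5 and 49.1 CPM in the controls and at 34.3, 21.4, 32.6 and 32.6 CPM in the knockouts. The highest control was replicate 4 and the lowest knockout replicate 2, and the log2 fold change was −0.27 (SE 0.20, edgeR adjusted p 0.338). Tfap2b is also expressed in sympathetic cells of the adrenal medulla. The 10 markers of adrenal medulla and sympathetic neurons summed to 208 and 170 CPM in replicates 1 and 4 of the knockouts, where Tfap2b was at 34.3 and 32.6 CPM. They summed to 10.9 CPM in knockout replicate 3 (Tfap2b 32.6 CPM) and to 11.7 CPM in knockout replicate 2 (Tfap2b 21.4 CPM). In control replicates 1 to 4 they summed to 42.8, 18.6, 31.0 and 50.1 CPM. Control replicate 4 thus had the highest sum of the controls and the highest Tfap2b level. The part of these transcripts in the level of Tfap2b was not tested.

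Sim1 (ENSMUSG00000019913, chromosome 10, 50895651 to 50989152, plus strand), a bHLH-PAS factor, was the most even member. It was at 22.9, 23.9, 28.1 and 28.5 CPM in control replicates 1 to 4 and at 29.2, 24.1, 22.9 and 25.8 CPM in knockout replicates 1 to 4. The log2 fold change was −0.02 (SE 0.11, edgeR adjusted p 0.902). Its paralog Sim2 was uneven, at 11.3, 7.79, 33.6 and 25.1 CPM in the controls and at 2.87, 0.251, 9.13 and 2.27 CPM in the knockouts (log2 fold change −2.40, SE 0.79, edgeR adjusted p 0.0696). Sim2 was called without control replicate 2 (adjusted p 0.0275) or without knockout replicate 3 (0.0243). The difference between Sim1 and Sim2 itself was not tested.

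**Figure D4:**
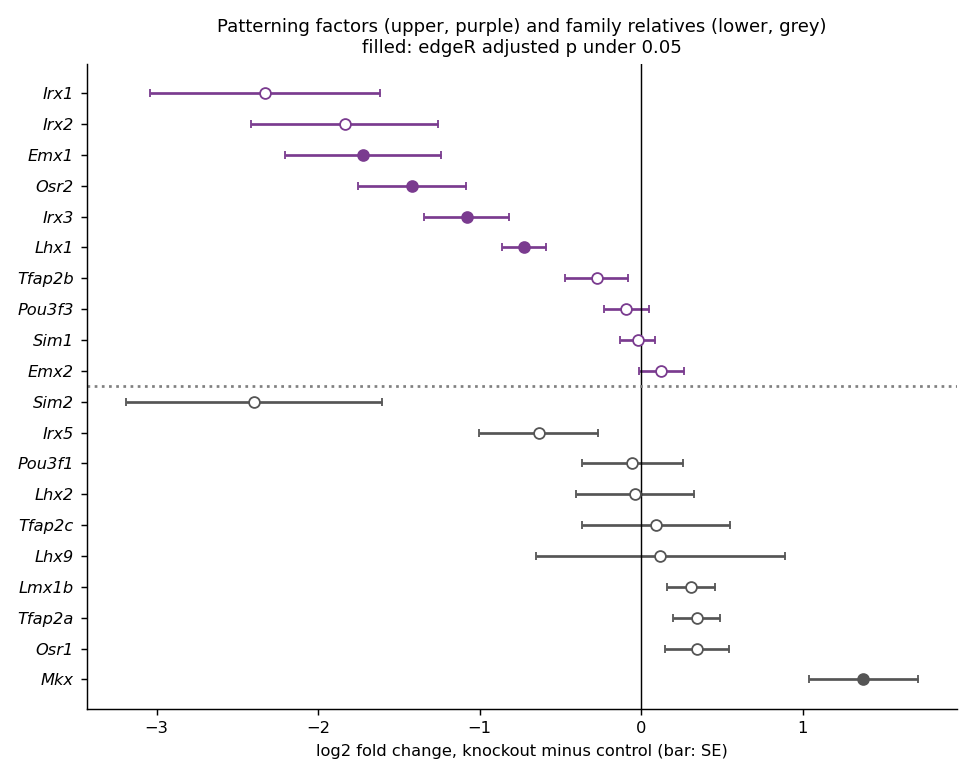
Log2 fold change, knockout minus control (horizontal axis, bars are SE), of the 10 members in purple and of the 10 tested family relatives in grey, with filled points for edgeR adjusted p under 0.05. Irx1 lies farthest left of the members at −2.33 and is open, 4 members are filled, and of the relatives Mkx alone is filled, at 1.38.

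Of 14 relatives of the same gene families, 10 passed the filter, and edgeR called 0 lower and 1 higher (at an unadjusted p under 0.05, 1 lower and 2 higher; DESeq2 called 1 and 1). Mkx, a homeobox gene related to the Iroquois family that is known from tendon, was at 7.68 ± 2.22 CPM in controls and 19.9 ± 7.87 CPM in knockouts (n = 4 each, log2 fold change 1.38, SE 0.34, edgeR adjusted p 0.0316). Knockout replicate 3, at 9.10 CPM, lay among the controls. Of the fits with 1 library left out, Mkx was called only without control replicate 2, where 4 relatives were called higher, or knockout replicate 3, and it reached an adjusted p of 0.0917 without knockout replicate 4 and 0.108 with the adrenal covariate. Tfap2a (log2 fold change 0.34) and Lmx1b (0.31), a factor of podocytes, were not called, at edgeR adjusted p values of 0.126 and 0.168. The median over the 10 tested relatives was 0.11.

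Genes of the progenitor and early nephron were read from a list of 20, of which 5 were called lower and 1 higher, with a median log2 fold change of 0.03. The progenitor genes Cited1 and Meox1 fell, Cited1 from 71.7 ± 34.5 to 23.1 ± 2.10 CPM (n = 4 each, log2 fold change −1.64, edgeR adjusted p 0.0225) and Meox1 by 1.45 on the log2 scale (edgeR adjusted p 0.0132). Papss2 fell by 1.09, Ccnd1 by 0.44 and the Notch ligand gene Dll1 by 0.94 on the log2 scale (edgeR adjusted p 0.0159, 0.0473 and 0.0324). Bmp7, a growth factor gene, rose by 0.26 on the log2 scale (edgeR adjusted p 0.0215). Six2, the defining progenitor factor, was at 132 ± 33.5 CPM in controls and 182 ± 34.8 CPM in knockouts and was not called (edgeR adjusted p 0.127), nor were Wnt4 (0.929) and Fgf8 (0.587), signals that act with Lhx1 in the vesicle. The calls lower ranged from 0 without knockout replicate 4 to 6 without control replicate 2 among the fits that left out a library. They were 2 when control replicate 1, 3 or 4 or knockout replicate 2 was left out, 3 without knockout replicate 1 and 4 without knockout replicate 3. The calls higher were 5 without control replicate 2, 1 without control replicate 4 or knockout replicate 3, and otherwise 0. The adrenal covariate ended the calls of Cited1 (adjusted p 0.0628), Ccnd1 (0.0642) and Bmp7 (0.0568), and the Y-linked covariate that of Ccnd1 (0.0800).

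Of 20 further transcription factors of nephron and collecting duct segments, 4 were called lower and 1 higher, with a median log2 fold change of −0.63. Those lower included Hnf4a, a factor of the proximal tubule, Esrrb and Hmx2. Hnf4a was at 110, 63.6, 122 and 163 CPM in the controls and at 29.6, 3.31, 35.2 and 27.4 CPM in the knockouts (log2 fold change −2.26, SE 0.57, edgeR adjusted p 0.0336). Knockout replicate 2 was again far below the others. Either covariate ended the call of Hnf4a, at adjusted p values of 0.0602 for Y-linked and 0.0532 for adrenal transcripts, and that of Hmx2, at 0.0548 and 0.0805. Esrrb fell by 2.59 and Hmx2 by 2.90 on the log2 scale (edgeR adjusted p 0.0193 and 0.0419). Hmx2 was a low gene, at most 3.09 CPM in any library. Gata3, a factor of the ureteric bud and collecting duct, rose by 0.56 on the log2 scale (edgeR adjusted p 0.0364, and 0.0868 with the adrenal covariate). The calls lower were 7 without control replicate 2 and 10 without knockout replicate 3, 2 without control replicate 4, 1 without knockout replicate 1 or 2, and 0 when control replicate 1, control replicate 3 or knockout replicate 4 was left out. The calls higher were 3 without control replicate 2 and 0 in the other fits that left out a library.

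Markers of the mature segments also differed between the genotypes and among the libraries of each. The 20 proximal tubule markers summed to 642 to 2739 CPM in controls and 95 to 455 CPM in knockouts, with control replicate 2 the lowest control and knockout replicates 2 and 3 the lowest and highest knockouts. The 13 markers of the thick ascending limb and loop summed to 421 to 1726 CPM and 88.6 to 532 CPM, with the same libraries at these ends. Of the proximal markers 19 were called lower, and of the loop markers 9. With 1 library left out the proximal calls ran from 1 without knockout replicate 4 to 20 without control replicate 2 or knockout replicate 3, and were 6 to 14 in the other 5 fits. The loop calls were 12 without control replicate 2, 11 without knockout replicate 3 and 0 in the other 6 fits. With the adrenal covariate the calls were 12 and 2, and with the Y-linked covariate 17 and 6. The 10 general epithelial markers summed to 1612 to 2564 CPM in controls and 1325 to 2243 CPM in knockouts, with 0 called by edgeR, 3 lower and 0 higher at an unadjusted p under 0.05, and 1 lower with DESeq2. The 12 markers of stroma summed to 3185 to 4481 CPM and 3740 to 6176 CPM. Of these 4 were called higher and 0 lower, with a median log2 fold change of 0.55. With 1 library left out the stroma calls higher ran from 1 without knockout replicate 4 (among other fits) to 11 without control replicate 2. The part of these markers in the levels of the members was not tested. In bulk tissue, fewer cells of a type and less RNA per cell cannot be told apart.

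The members were also set against the summed general epithelial markers of the same library. On the log2 scale Irx1 differed by −2.28, Irx2 by −1.56, Emx1 by −1.30 and Irx3 by −0.73 between genotypes, and in each of these 4 all knockout libraries lay below all controls, which 9.58% of tested genes did in their own levels. Against this list the ranges of Osr2 (−1.14) and Lhx1 (−0.33) overlapped, as they did for Pou3f3 (0.32), Sim1 (0.38), Tfap2b (0.13) and Emx2 (0.52). Lhx1 relative to epithelial markers was −5.22, −5.12, −5.17 and −5.36 in the controls, −5.19 and −5.18 in knockout replicates 1 and 2, and −6.25 and −5.57 in knockout replicates 3 and 4. Knockout replicates 1 and 2 were thus inside the control range on this scale. Against the summed proximal tubule markers no member was lower on average in the knockout. Irx3 (1.69), Emx1 (1.13), Pou3f3 (2.74), Sim1 (2.80), Tfap2b (2.56) and Emx2 (2.94) had every knockout library above every control, and Lhx1 (2.10), Osr2 (1.29), Irx2 (0.86) and Irx1 (0.15) overlapped. The proximal sum itself was 642 to 2739 CPM in controls and 95 to 455 CPM in knockouts. A gene of even level therefore rises in this ratio, and such a separation does not show a change of the member. Against the loop markers all 10 overlapped, with Irx1 at −0.20 and the others above 0, among them Osr2 at 0.94 and Lhx1 at 1.75. Against the distal convoluted and connecting tubule markers Osr2 (−1.19) had every knockout below every control and Sim1 (0.33) every knockout above. Against podocyte markers Irx3 (−0.73) and Osr2 (−1.13) were below and Pou3f3 (0.32) above in this sense, and the other members overlapped. The direction of a member relative to a list thus depended on the list. These ratios were chosen after the data were seen, carry no test, and were not computed for all genes.

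**Figure D5:**
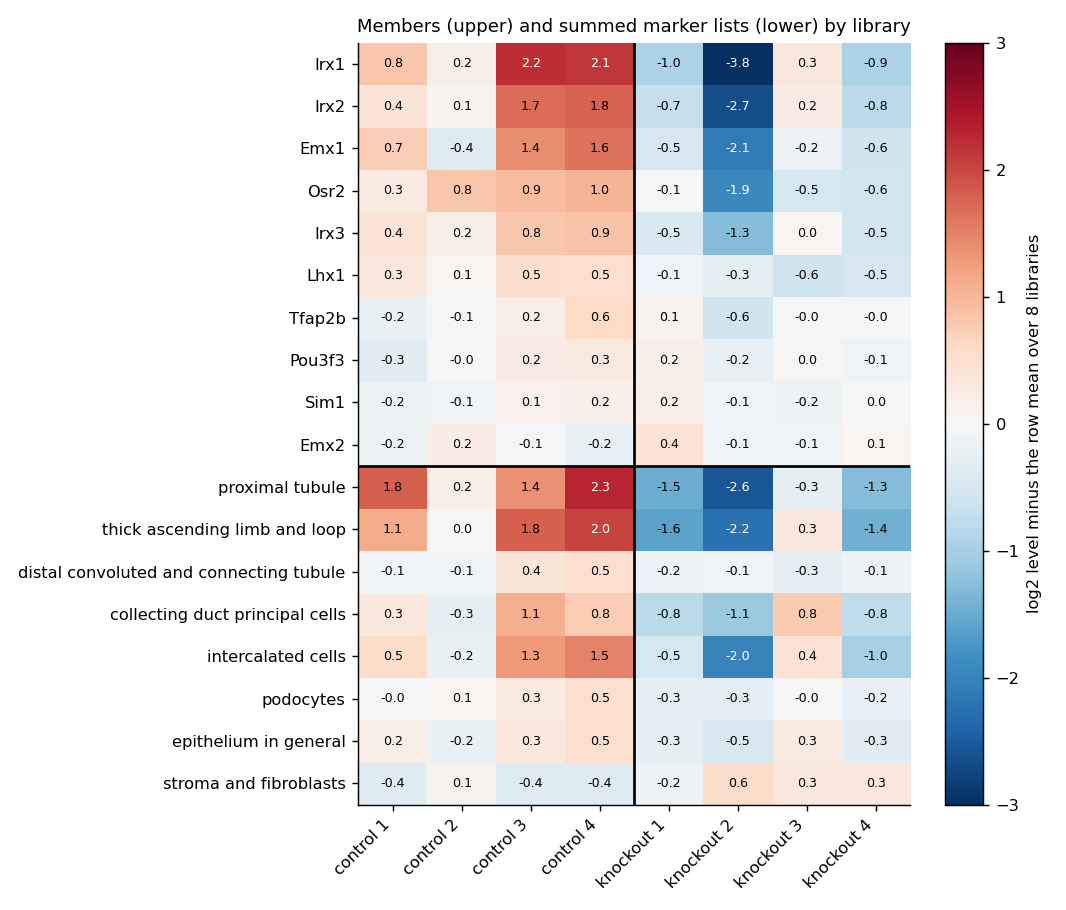
Log2 level of each member (upper rows) and of each summed marker list (lower rows) in the 8 libraries, each row centred on its mean, with red for above and blue for below the mean. Irx1, Irx2, Emx1, Osr2 and Irx3 are lowest in knockout replicate 2. So are the proximal, loop, principal cell, intercalated, podocyte and general epithelial lists, whereas the stroma list is highest there. Sim1 stays between −0.16 and 0.19 of its mean.

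The genes whose profile over the 8 libraries was most like that of a member were found among 14252 tested genes, by the root mean square distance between centred log2 CPM values. For Irx1 these were Sim2 (distance 0.26) and Ddn (0.28), where Irx1 itself varied by 1.82 around its mean. For Irx2 they were Cwh43 (0.23) and Tmem72 (0.24), for Irx3 Smagp (0.11) and Me3 (0.13), and for Emx1 Pde4c (0.17) and Cideb (0.25). Osr2 was nearest to Hsf2bp (0.15) and Clec18a (0.25), and Lhx1 to Ugt1a6a (0.11) and Slc46a1 (0.12). Slc46a1, a folate transporter gene, was at 15.5, 13.8, 18.1 and 20.3 CPM in the controls and at 12.5, 10.8, 10.6 and 10.2 CPM in the knockouts, so it shared with Lhx1 the low values of knockout replicates 3 and 4. The members with the smallest differences were nearest to genes that were not called. These were Acbd5 (0.034) and Pde4dip (0.053) for Sim1, and Mertk (0.059) and Etnk1 (0.077) for Pou3f3. For Emx2 they were Noxo1 (0.077) and Tbcel (0.079), and for Tfap2b, which was less even, Znrf2 (0.10) and Inpp5j (0.11).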

How the data were processed

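Polyadenylated RNA from 4 control and 4 Kdm1a conditional knockout mouse kidneys was analysed from the deposited tables. Per the submitters' processing notes, Trimmomatic 0.36, STAR 2.5.2b, featureCounts of Subread 1.5.2, DESeq2 and the build GRCm38 were named, without role or order. Per gene, the deposited tables of the authors hold whole-number counts of reads, with exon coordinates and length per the file headers, and no normalization. The table of the whole series and those of single libraries differed in 0 cells. Symbols came from GENCODE M21 (48970 of 49315 IDs).

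Counts were scaled by TMM, filtered with filterByExpr and compared over all 8 libraries, without covariates, with edgeR 4.0.16 (R 4.3.3). The test was checked on simulated counts whose libraries varied independently of each other. Such counts lack the outlying libraries seen here, so that check does not cover them. Log2 CPM used a prior count of 2. RPKM used the deposited gene lengths. The chi-square per degree of freedom over 28 pairs of libraries was at least 11.0, so no library appeared more than once. The members and gene lists were chosen with earlier results of these data known. Named genes are the members, Kdm1a, up to 3 genes of the smallest adjusted p per list, 2 genes nearest each member and overlapping genes. Irx4, Irx5, Irx6, Osr1, Lmx1b, Six2, Cited1, Dll1, Ccnd1, Wnt4, Fgf8, Gata3 and Hmx2 were added after their values were seen. Some genes of the lists are not reported here. Lists are described by counts and medians where they bear on the members. Alternatives were DESeq2 1.42.0 and its size factors, limma 3.58.1 (voom with sample weights), other filters, a replicate block, covariates, and left-out libraries.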

Additional observations from a re-analysis of the deposited data

Results flagged for a closer look

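Tfap2b in knockout replicate 2 was at 21.4 CPM, while the other 3 knockout libraries lay between 32.6 and 34.3 CPM. Its gap to the next library took up 0.868 of the range of the group, above Dixon's 95% critical value for 4 samples. Chance gives about 1 such gap in 20 groups, and 22 groups were examined (the 10 members and Kdm1a in each genotype), of which 1 passed. Knockout replicate 2 was also the lowest knockout library for 8 of the 10 members, and it had the lowest sums of proximal tubule markers (95 CPM) and of intercalated cell markers (28.9 CPM). It was likewise lowest of the 8 libraries for loop (88.6 CPM), collecting duct principal cell (313), podocyte (604), general epithelial (1325) and endothelial markers (391). For stroma markers it was the highest (6176 CPM). The part of these lists in the level of Tfap2b was not tested.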

How the results depend on the processing

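At an edgeR adjusted p under 0.05, 2751 genes and 4 members were called with all libraries. The number of genes was 4494 with DESeq2, 8302 with limma-voom, 2392 with no filter, 2079 with the Y-linked covariate and 1090 with the adrenal covariate. It was 7903 with control replicate 2 and knockout replicate 3 both left out, and 153 to 7084 with each library left out. Members called lower numbered 2 with the Y-linked and with the adrenal covariate (Lhx1 and Osr2), 6 with DESeq2, limma-voom or no filter, and 0 to 6 with each library left out. Members called higher numbered 0 in every fit. Without the 3 libraries with adrenal transcripts (control replicate 4, knockout replicates 1 and 4), an alternative chosen after the data were seen, 1 gene and 0 members were called. Kdm1a then had a log2 fold change of −0.29 (adjusted p 0.325), and from −0.29 to −0.24 with each library left out. Without those 3 libraries Emx2 was at −0.12, against 0.13 with all. Emx2 was also below 0 with the adrenal covariate (−0.0062) and without knockout replicate 1 (−0.0035, the lowest of a range up to 0.23 with each library left out). Sim1, at −0.02 with all libraries and as low as −0.093 without knockout replicate 1, was above 0 without control replicate 3 (0.02), control replicate 4 (0.02), knockout replicate 2 (0.0030) or knockout replicate 3 (0.047). The cause of these changes was not tested. Lhx1, Osr2, Irx3, Irx1, Irx2, Emx1, Pou3f3 and Tfap2b stayed below 0 in every fit.

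Deviations of libraries of the same number had correlations from −0.11 to 0.33 over 4 numbers, and those of unlike numbers from −0.47 to 0.40. The labels do not say whether the numbers pair the kidneys, and so few correlations cannot decide it. The replicate block gave 3229 genes and 6 members called lower, and a Kdm1a log2 fold change of −0.27. With the numbers as a block the 4 family ratios had an exact sign-flip p of 0.125, the smallest that 4 pairs allow. No ratio passed the threshold under any alternative run, and none could have passed by itself after adjustment. Differences ran from −2.32 to −1.45 for Emx1 to Emx2 and from 0.98 to 1.9 for Irx3 to Irx1 with each library left out. With control replicate 2 and knockout replicate 3 both left out, 3 against 3 libraries cannot give a p below 0.1. Counting limits Irx1, Irx2 and Emx1 in knockout replicate 2, with 20, 23 and 38 counts.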

Other observations

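In the controls, Emx1 kept a nearly fixed proportion to the summed markers of the thick ascending limb and loop. The log2 ratio was −5.98, −5.97, −5.99 and −5.99 in control replicates 1 to 4 (SD 0.010), although Emx1 itself ranged from 6.63 to 27.0 CPM. In knockout replicates 1 to 4 the ratio was −4.49, −5.46, −6.09 and −4.76 (SD 0.723), so that knockout replicate 3 lay just below the controls and the other 3 lay above them. The ratio was seen among 50 ratios of 10 members to 5 marker lists, and no test was made of it.

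Knockout replicates 1 and 4 had the same Irx1 level (7.69 and 7.70 CPM) and similar levels of Irx2 (4.77 and 4.35 CPM), Irx3 (16.6 and 15.8 CPM) and Emx1 (6.08 and 5.65 CPM). They are also the 2 knockout libraries with the most adrenal transcripts, at 3242 and 354 CPM.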
